A study of Homo sapiens with 16 samples.

Results

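The kinases and adaptors that carry the TNFα signal to NFκB were examined as chromatin targets of p65 itself. The 10 genes, of 19962 protein-coding genes, were taken by name as the route from the receptor to the IκB kinase and the kinases beside it: RIPK1, MAP3K7, TAB2, IKBKB, CHUK, IKBKG, IKBKE, TBK1, MAP3K8 and MAP3K14. For each gene, p65 signal was read in every 200-bp bin from 50 kb upstream to 10 kb downstream of the gene, except that IKBKG was read from the bin of its main start site onward. A bin was listed for a group of cells where its mean signal was at least 2 and at least 4 times the input of that group. Listed bins less than 400 bp apart were joined to 1 region, and the bin with the highest mean stands for it.

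The study asked how estrogen receptor β (ERβ) shapes p65 binding in 2 human colorectal cancer cell lines, HT29 and SW480. Both lines were stably transfected with ERβ or with an empty vector (mock), giving 4 groups: HT29-mock, HT29-ERβ, SW480-mock and SW480-ERβ. All cells, mock cells included, received TNFα at 30 ng/ml for 30 min before double crosslinking with DSG and formaldehyde and p65 ChIP-Seq, so no group shows p65 without TNFα. Each group had 3 ChIP libraries and 1 input. ERβ was present here as a stably transfected gene in each line, and a difference between ERβ and mock cells of 1 line cannot be told apart from other differences between those 2 cell populations. Signal is tag density per bp after scaling each library to 10 M tags, so read depth could not be read from the tracks and no counting interval is given.

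TNFα binding to its receptor assembles a complex in which RIPK1 carries ubiquitin chains. TAB2 binds such chains and brings in TAK1, the kinase encoded by MAP3K7, which activates the IκB kinase made of the catalytic subunits IKKα (CHUK) and IKKβ (IKBKB) and the regulatory subunit NEMO (IKBKG). IKK marks the inhibitor IκBα for destruction, p65 enters the nucleus and binds κB sites, and among its best known targets are the genes of its own inhibitors. IKKε (IKBKE) and TBK1 are IKK-related kinases best known from interferon induction, MAP3K8 (TPL2) is held by the p105 precursor and drives the ERK route once IKK releases it, and MAP3K14 (NIK) starts the non-canonical route.

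Several features of the whole series bear on all values. The libraries held between 1272 and 13521 bins at the limits of 2 and 4 times input, and the HT29 libraries numbered 1 stood apart with 12999 (mock) and 9317 (ERβ) against 2118 to 3955 in the other HT29 libraries. The SW480-mock libraries held 1272 to 2201 such bins and the SW480-ERβ libraries 5969 to 13521. Signal over the coding exons of ESR2, the gene of ERβ, was 4.22 to 7.66 times that of the rest of the gene in HT29-ERβ ChIP libraries and 2.43 to 2.97 times in SW480-ERβ, against 1.08 to 1.36 and 1.33 to 1.59 times in the mock libraries of the same lines. This excess over the coding exons matched the ERβ label in all 12 ChIP libraries. It is a DNA signal and does not measure the level of ERβ, which the study reports as higher in SW480 than in HT29. At NFKBIA, the gene of IκBα, the highest bin averaged 15.6, 15.1, 20.0 and 27.5 in HT29-mock, HT29-ERβ, SW480-mock and SW480-ERβ. TNFAIP3, whose product A20 restrains the TNFα signal, averaged 14.0, 12.8, 22.9 and 23.6 in the same order, and these 2 targets give the scale for the values that follow.

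Of the 10 genes, 5 had listed p65 signal in their windows in at least 1 group and 5 had none. IKBKE, MAP3K8 and RIPK1 were listed in every group. IKBKB and IKBKG were listed in SW480-ERβ alone. CHUK, TBK1, MAP3K14, MAP3K7 and TAB2 were listed in no group. The counts were therefore 3 of 10 in HT29-mock, where 21.5% of all protein-coding genes had a listed bin, 3 in HT29-ERβ (background 15.7%), 3 in SW480-mock (background 7.56%) and 5 in SW480-ERβ (background 31.6%). Over all genes, 5.82% were listed in every group and 64.3% in none. The windows of the 10 genes held 137 (IKBKG) to 1265 bins with a median of 554, against a median of 437 over all genes, with IKBKG and, at 432 bins, IKBKE below that median, and 286 of the 569 bins of MAP3K14 were blank. At the 5 regions that were listed in SW480-ERβ alone (IKBKB, IKBKG and IKBKE at +624, +2224 and +10824 bp from its first base), the listing itself required a high SW480-ERβ signal, so differences that involve this group are given there as a description. A window also takes in neighbouring genes, and the nearest transcription start site is given with each region.

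**Figure D1:**
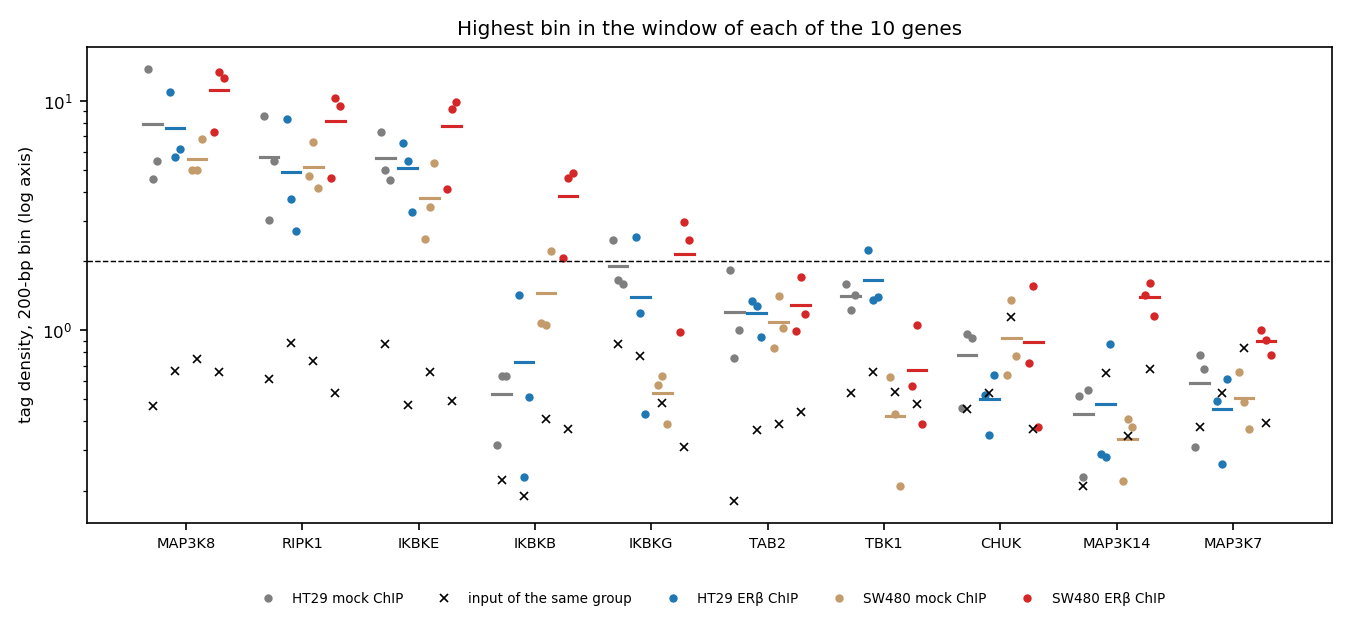
Tag density in the highest 200-bp bin of each gene's window (log axis), with 1 point per ChIP library, a bar for the mean of the 3 libraries of a group and a cross for the input of that group. The dashed line marks the limit of 2, and the means of MAP3K8, RIPK1 and IKBKE lie above it in every group, those of IKBKB and IKBKG only in SW480-ERβ, and those of the other 5 genes in none.

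The 8 regions in the 5 windows differed in whether they held the κB consensus, the letters that NFκB dimers recognise, on either strand. These letters were found in 2.91% of all 200-bp bins of the genome and in 38.6% of the 12569 bins listed in any group. Of the 8 leading bins, those of IKBKB and of IKBKE at −776, +624 and +10824 bp from its first base held the letters, and those at the IKBKG start site, at IKBKE +2224 bp, at the MAP3K8 promoter and at the BPHL start did not, although a match in the MAP3K8 region straddled the edge of its leading bin. A match is a description of the letters and not evidence of a site in use. The stretches below (GRCh38, forward strand, read from the reference genome) are shown because they are the regions of IKBKE and MAP3K8, the genes listed in every group close to their own first base, with κB letters and the AP-1 letters TGACTCA or TGAGTCA in capitals.
IKBKE, upstream, chr1:206469601-206469800: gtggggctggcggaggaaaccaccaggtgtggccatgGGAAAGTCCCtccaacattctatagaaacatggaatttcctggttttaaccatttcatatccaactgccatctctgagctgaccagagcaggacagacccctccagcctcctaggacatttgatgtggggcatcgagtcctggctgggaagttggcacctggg
IKBKE, near intron, chr1:206470956-206471155: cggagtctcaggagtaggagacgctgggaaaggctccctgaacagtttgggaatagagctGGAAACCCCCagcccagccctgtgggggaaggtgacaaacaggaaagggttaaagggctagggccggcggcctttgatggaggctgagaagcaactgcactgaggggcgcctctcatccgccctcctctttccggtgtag
IKBKE, intron, chr1:206472601-206472800: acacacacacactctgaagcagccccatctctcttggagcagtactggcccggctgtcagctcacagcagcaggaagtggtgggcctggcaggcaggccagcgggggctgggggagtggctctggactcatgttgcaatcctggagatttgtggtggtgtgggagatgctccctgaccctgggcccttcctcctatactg
IKBKE, far intron, chr1:206481201-206481400: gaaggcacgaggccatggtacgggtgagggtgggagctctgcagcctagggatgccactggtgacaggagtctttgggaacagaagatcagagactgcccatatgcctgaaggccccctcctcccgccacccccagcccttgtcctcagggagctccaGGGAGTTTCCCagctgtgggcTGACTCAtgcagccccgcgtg
MAP3K8, promoter, chr10:30433811-30434010: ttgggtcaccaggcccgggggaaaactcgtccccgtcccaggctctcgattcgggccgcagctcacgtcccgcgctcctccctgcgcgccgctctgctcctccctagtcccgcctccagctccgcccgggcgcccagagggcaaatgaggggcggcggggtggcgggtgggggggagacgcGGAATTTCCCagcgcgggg

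At the receptor, p65 signal in the window of RIPK1, the kinase and scaffold of the TNF receptor complex, lay not at RIPK1 but at the start of its neighbour BPHL. The region at chr6:3118201-3118800 spanned 3 bins, and its leading bin sat 126 bp after a transcription start site of BPHL, within its UTR, and 54676 bp from the first base of RIPK1, beyond the end of the gene. The libraries there gave 8.59, 3.01 and 5.44 in HT29-mock, 8.31, 3.72 and 2.71 in HT29-ERβ, 4.69, 6.64 and 4.17 in SW480-mock and 4.61, 10.3 and 9.52 in SW480-ERβ. The groups overlapped throughout, and the largest of the 4 means, 8.15 ± 3.10 (SD, n = 3) in SW480-ERβ, was 1.58-fold that of SW480-mock. RIPK1's own promoter was taken as the 1 kb before and the 100 bp after its main start site. This site, at chr6:3068494, lies inside the gene, whose first base is at 3063824. The promoter means of 0.477, 0.505, 0.606 and 0.495 in HT29-mock, HT29-ERβ, SW480-mock and SW480-ERβ stood beside inputs of 0.560, 0.488, 0.593 and 0.325. Read from 50 kb upstream to only 2 kb downstream of the first base of the gene, RIPK1 was listed in no group. Without HT29-ERβ 1 the BPHL region, and with it RIPK1, was no longer listed in HT29-ERβ.

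At the TAK1 step, MAP3K7 and TAB2 carried no listed p65 signal. The highest bin in the window of MAP3K7 covered its start site and gave 0.310, 0.777 and 0.679 in HT29-mock, 0.491, 0.262 and 0.610 in HT29-ERβ, 0.660, 0.488 and 0.370 in SW480-mock and 0.998, 0.905 and 0.782 in SW480-ERβ, with inputs of 0.380 to 0.837. The SW480-ERβ libraries lay above all those of the other groups, and their mean was 0.895 ± 0.109 (SD, n = 3). The highest bin of TAB2 lay in an intron 14859 bp into the gene and gave 1.83, 0.758 and 1.00 in HT29-mock, 1.345, 1.275 and 0.932 in HT29-ERβ, 0.833, 1.42 and 1.02 in SW480-mock and 0.992, 1.71 and 1.18 in SW480-ERβ, where all groups overlapped. Neither gene came near NFKBIA or TNFAIP3, and among all genes the highest mean in the MAP3K7 window stood at percentiles 14.1 to 21.5 across the groups and that of TAB2 at 56.1 to 76.3. No comparison between groups passed the test at these 2 bins. The input of the TAB2 window was 1.75 times higher in SW480 than in HT29.

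The 3 subunits of the IκB kinase differed from each other. CHUK, encoding IKKα, had no listed bin. Its highest bin, at the start site of the neighbouring ERLIN1, gave 0.460, 0.962 and 0.924 in HT29-mock, 0.520, 0.350 and 0.635 in HT29-ERβ, 0.640, 1.36 and 0.770 in SW480-mock and 0.720, 1.56 and 0.380 in SW480-ERβ, beside an input that reached 1.14 in SW480-mock. SW480-mock lay just above HT29-ERβ, and all other pairs of groups overlapped. The promoter of CHUK itself averaged 0.550, 0.4995, 0.594 and 0.524 in HT29-mock, HT29-ERβ, SW480-mock and SW480-ERβ, with inputs of 0.390 to 0.602.

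IKBKB, encoding IKKβ, carried p65 at its promoter in SW480-ERβ. The region at chr8:42270801-42271800 spanned 4 listed bins in that group and none in the others, and its leading bin lay at −402 bp from the first base of the gene. The libraries gave 0.316, 0.630 and 0.631 in HT29-mock, 1.43, 0.230 and 0.514 in HT29-ERβ, 1.08, 1.06 and 2.21 in SW480-mock and 2.07, 4.59 and 4.86 in SW480-ERβ. All SW480 libraries but the lower mock ones exceeded every HT29 library, and the lowest SW480-ERβ library lay just below the highest SW480-mock library. The mean of 3.84 ± 1.54 (SD, n = 3) in SW480-ERβ was 10.4 times its input and 2.65-fold that of SW480-mock, a difference of 0.96 ± 0.23 (SE) on the log2(signal + 1) scale (limma, adjusted p = 0.014). It passed in 8 of 16 alternative fits, and not without SW480-mock 1 (adjusted p = 0.25), SW480-mock 2 (adjusted p = 0.24), SW480-ERβ 2 (adjusted p = 0.17) or SW480-ERβ 3 (adjusted p = 0.22). The difference between the mock lines was 0.66 ± 0.19 (adjusted p = 0.0062, and 0.07 without SW480-mock 3). The input around IKBKB was itself 2.47 times higher in SW480 than in HT29. With each library divided by the local input of its line the difference between the mock lines came to 0.07 (limma adjusted p = 0.94). That between SW480-ERβ and SW480-mock came to 0.85 (adjusted p = 0.064). All SW480 libraries share the same factor, so this scaling cannot correct a difference within the line.

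IKBKG, encoding NEMO, had 1 region of 1 bin, at chrX:154547601-154547800 in a UTR of the gene at its start site. It was listed in SW480-ERβ alone. The libraries gave 2.47, 1.66 and 1.59 in HT29-mock, 2.55, 1.18 and 0.432 in HT29-ERβ, 0.578, 0.630 and 0.390 in SW480-mock and 0.980, 2.97 and 2.48 in SW480-ERβ. The SW480-ERβ libraries all lay above the SW480-mock libraries, 4.03-fold in the mean, with a difference of 0.98 ± 0.20 (SE, log2 scale, limma adjusted p = 0.00092). Without SW480-ERβ 2 the difference was 0.78 (adjusted p = 0.05). HT29-mock fell short of listing with 1.91 ± 0.490 (SD, n = 3) at 2.19 times its input, and HT29-ERβ with 1.39 ± 1.075 at 1.80 times. Every HT29-mock library exceeded every SW480-mock library, and the difference between the mock lines was −0.91 ± 0.20 (limma adjusted p = 0.00039). The input around IKBKG in SW480 was 0.47 times that in HT29, and with local input scaling this difference came to −0.39 (adjusted p = 0.48). Without SW480-ERβ 2, without SW480-ERβ 3, with the limit raised to 3, at 8 times input or with bins shifted by 100 bp, IKBKG was listed in no group.

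**Figure D2:**
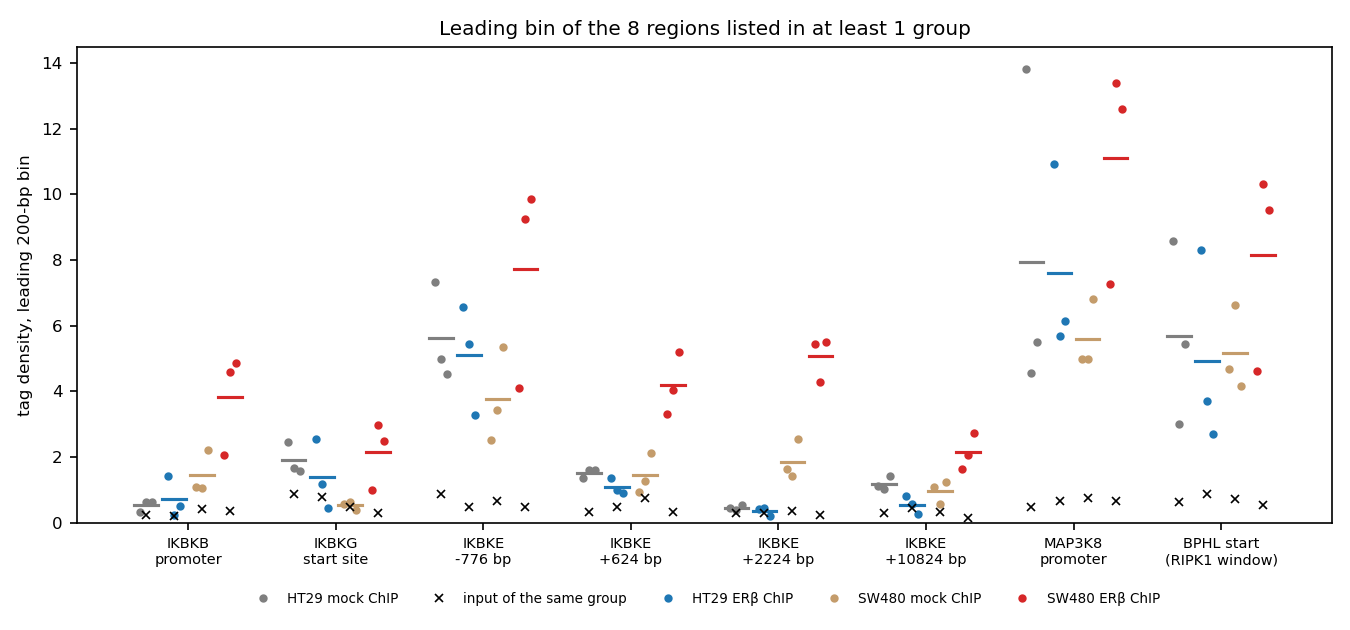
Tag density in the leading 200-bp bin of the 8 regions, with 1 point per ChIP library, a bar for the group mean and a cross for the input. SW480-ERβ (red) has the highest mean at all 8 regions, up to 11.1 at the MAP3K8 promoter. At the 5 regions listed in SW480-ERβ alone, the listing itself required a high signal in that group.

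Of the IKK-related kinases, IKBKE was listed in every group and TBK1 in none. IKBKE had 4 regions, between −776 and +10824 bp from its first base. The upstream region, chr1:206469401-206470000, was listed in every group, with its leading bin at −776 bp and over the κB letters printed above. The libraries gave 7.34, 4.98 and 4.52 in HT29-mock, 6.57, 5.45 and 3.29 in HT29-ERβ, 2.50, 3.43 and 5.34 in SW480-mock and 4.11, 9.24 and 9.84 in SW480-ERβ. All 12 libraries were above 2 and the groups overlapped, within and between the lines. The mean of SW480-ERβ, 7.73 ± 3.15 (SD, n = 3), was 2.06-fold that of SW480-mock, which missed the threshold (0.84 ± 0.24, limma adjusted p = 0.087) and passed it with the replicate number as a block (adjusted p = 0.015).

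The other IKBKE regions were listed in SW480-ERβ alone. At +624 bp, in an intron, the libraries gave 1.35, 1.60 and 1.61 in HT29-mock, 1.36, 0.986 and 0.918 in HT29-ERβ, 0.948, 1.28 and 2.12 in SW480-mock and 3.31, 4.04 and 5.201 in SW480-ERβ. The SW480-ERβ libraries did not overlap any other group, and the difference from SW480-mock was 1.09 ± 0.23 (limma adjusted p = 0.002). It passed in 10 of 16 alternative fits, and not without SW480-mock 1 (adjusted p = 0.15), SW480-mock 2 (adjusted p = 0.056) or SW480-ERβ 3 (adjusted p = 0.054). HT29-mock reached 1.52 ± 0.144 (SD, n = 3) here, 4.47 times its input, and missed listing on level only.

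The intronic bin of IKBKE at +2224 bp, which lay at −154 bp from an internal start site of the gene, separated the lines. The libraries gave 0.450, 0.390 and 0.539 in HT29-mock, 0.410, 0.440 and 0.210 in HT29-ERβ, 1.62, 1.42 and 2.54 in SW480-mock and 5.43, 4.29 and 5.50 in SW480-ERβ. The HT29 libraries stayed near their inputs of 0.290, every SW480-mock library lay above them, and every SW480-ERβ library lay above those. SW480-mock exceeded HT29-mock by 0.95 ± 0.19 (SE, log2 scale, limma adjusted p = 0.0002), SW480-ERβ exceeded SW480-mock by 1.10 ± 0.24 (adjusted p = 0.0027), and SW480-ERβ exceeded HT29-ERβ 14.4-fold in the mean, or by 2.16 ± 0.26 (adjusted p = 2.6e-08). The input around this bin was 1.03 times that of HT29 in SW480, and with local input scaling the difference between the mock lines still passed, as in 15 of 16 alternative fits. That between SW480-ERβ and SW480-mock passed in 11 of 16, and not without SW480-mock 1 (adjusted p = 0.079) or SW480-mock 2 (adjusted p = 0.12). The bin was listed in SW480-ERβ alone, so the differences that involve this group are a description. Its stretch held neither κB nor AP-1 letters.

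The far intronic bin of IKBKE at +10824 bp held overlapping κB letters with 10 bases between them and an AP-1 match. The libraries gave 1.12, 1.02 and 1.41 in HT29-mock, 0.803, 0.569 and 0.278 in HT29-ERβ, 1.08, 0.577 and 1.23 in SW480-mock and 1.62, 2.06 and 2.74 in SW480-ERβ. HT29-ERβ lay below HT29-mock in every library and SW480-ERβ above SW480-mock in every library, yet neither difference passed the test (−0.51 ± 0.18 with adjusted p = 1.0, and 0.68 ± 0.21 with adjusted p = 0.12, limma). SW480-ERβ exceeded HT29-ERβ by 1.02 ± 0.22 (adjusted p = 0.00041), which is a description too, as the bin was listed in SW480-ERβ alone.

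TBK1 did not reach the limits, although an intron showed signal in HT29. The highest bin, at chr12:64452801-64453000 and 425 bp after a start site, gave 1.59, 1.23 and 1.43 in HT29-mock, 2.23, 1.36 and 1.395 in HT29-ERβ, 0.628, 0.430 and 0.210 in SW480-mock and 0.570, 1.05 and 0.390 in SW480-ERβ. Every HT29 library lay above every SW480 library. The bin is the highest of the window through HT29, while the highest group means of SW480 lay at other bins (0.907 in SW480-mock and 1.39 in SW480-ERβ), so the differences between the lines are a description. SW480-mock was lower than HT29-mock by −0.77 ± 0.18 (limma adjusted p = 0.00078), with group means of 0.423 and 1.42 and inputs of 0.540 and 0.535. SW480-ERβ was lower than HT29-ERβ by −0.68 ± 0.21 (adjusted p = 0.013), a call that passed in 10 of 16 alternative fits and was lost with local input scaling (adjusted p = 0.17) and without HT29-ERβ 1 (adjusted p = 0.071), SW480-ERβ 1 (adjusted p = 0.051) or SW480-ERβ 3 (adjusted p = 0.13). With the limit lowered to 1, TBK1 was listed in HT29-ERβ through another bin. The highest bin averaged 1.66 there beside an input of 0.658, and so also missed the limit of 4 times input. TAB2 was listed in HT29-mock at the limit of 1.

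MAP3K8, encoding TPL2, carried the broadest p65 region of the 10 genes. The region at chr10:30433001-30434800 covered 9 bins across the promoter and the start of the gene, of which 9, 8, 2 and 8 were listed in HT29-mock, HT29-ERβ, SW480-mock and SW480-ERβ. The leading bin, at −121 bp from the first base, gave 13.8, 4.55 and 5.49 in HT29-mock, 10.9, 5.69 and 6.14 in HT29-ERβ, 4.997, 4.98 and 6.81 in SW480-mock and 7.27, 13.4 and 12.6 in SW480-ERβ. The first HT29 library of each type was the highest of its group, and the SW480-ERβ libraries lay above all SW480-mock libraries. The SW480 difference was 0.84 ± 0.23 (limma adjusted p = 0.047), with means of 11.1 ± 3.33 and 5.60 ± 1.05 (SD, n = 3). This call passed in 6 of 16 alternative fits, and was lost among others without SW480-mock 1, SW480-mock 2, SW480-ERβ 2 or SW480-ERβ 3. It was also lost with local input scaling (0.85, limma adjusted p = 0.079). That scaling gives all SW480 libraries the same factor and cannot correct a difference within the line.

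The MAP3K8 region held κB letters in 5 places. They are shown because they are spread over the region, a pair on either side of the leading bin and 1 across its edge, at −898, −805, −25, +375 and +422 bp from the first base of the gene, each with the letters in capitals.
MAP3K8 −898, chr10:30433109-30433138: cggggcattgGGAATGTCCCgcagagtgga
MAP3K8 −805, chr10:30433202-30433231: cactctagaaGGAAAACCCCagatgagcag
MAP3K8 −25, chr10:30433982-30434011: ggggagacgcGGAATTTCCCagcgcggggg
MAP3K8 +375, chr10:30434382-30434411: atccagggttGGGGGTCTCCggcgtgtctt
MAP3K8 +422, chr10:30434429-30434458: tgggtgccccGGGGATTCCCatgcagaaat
In a RefSeq table of promoters, 250 bases before to 50 bases after each start on GRCh38, κB letters were in 9.26% of 27195 promoters and in 1 of the 9 promoters of these genes that matched by symbol, that of MAP3K8. AP-1 letters were in 4.89% of all promoters and in 0 of the 9.

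MAP3K14, encoding NIK, could be read only in part. Of its 569 bins, 286 (50.3%) were blank in every library, inputs included, among them all 5 bins of the promoter. The blank stretch ran over chr17:45309801-45367000, and a 75-base word taken from each of its 286 bins was also found on alternative sequences of the assembly in 286 of 286 cases. p65 at the MAP3K14 promoter was therefore not measured here, in either direction. In the readable part, the highest bin, at chr17:45266001-45266200 in an intron, gave 0.518, 0.230 and 0.550 in HT29-mock, 0.290, 0.279 and 0.867 in HT29-ERβ, 0.220, 0.410 and 0.379 in SW480-mock and 1.42, 1.60 and 1.16 in SW480-ERβ. The SW480-ERβ libraries lay above all others, by 0.84 ± 0.17 over SW480-mock (limma adjusted p = 0.0016, in 12 of 15 alternative fits past the threshold and at 0.077 without SW480-mock 1), but their mean of 1.39 ± 0.222 (SD, n = 3) was below the limit of 2 and stood beside an input of 0.677. The means of the other groups at this bin were 0.336 to 0.479, so it reached the filter of 0.5 on the mean of the 12 libraries through SW480-ERβ, and this difference too is a description. In the IKBKG window as read here, 73 of 137 bins (53.3%) were blank, at chrX:154560401-154575000 over the end of the gene, and 72 of the 73 words there occurred again in the chromosomes. In the IKBKB window 14 bins downstream of the gene were blank, and 0 of their 14 words were found elsewhere.

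**Figure D3:**
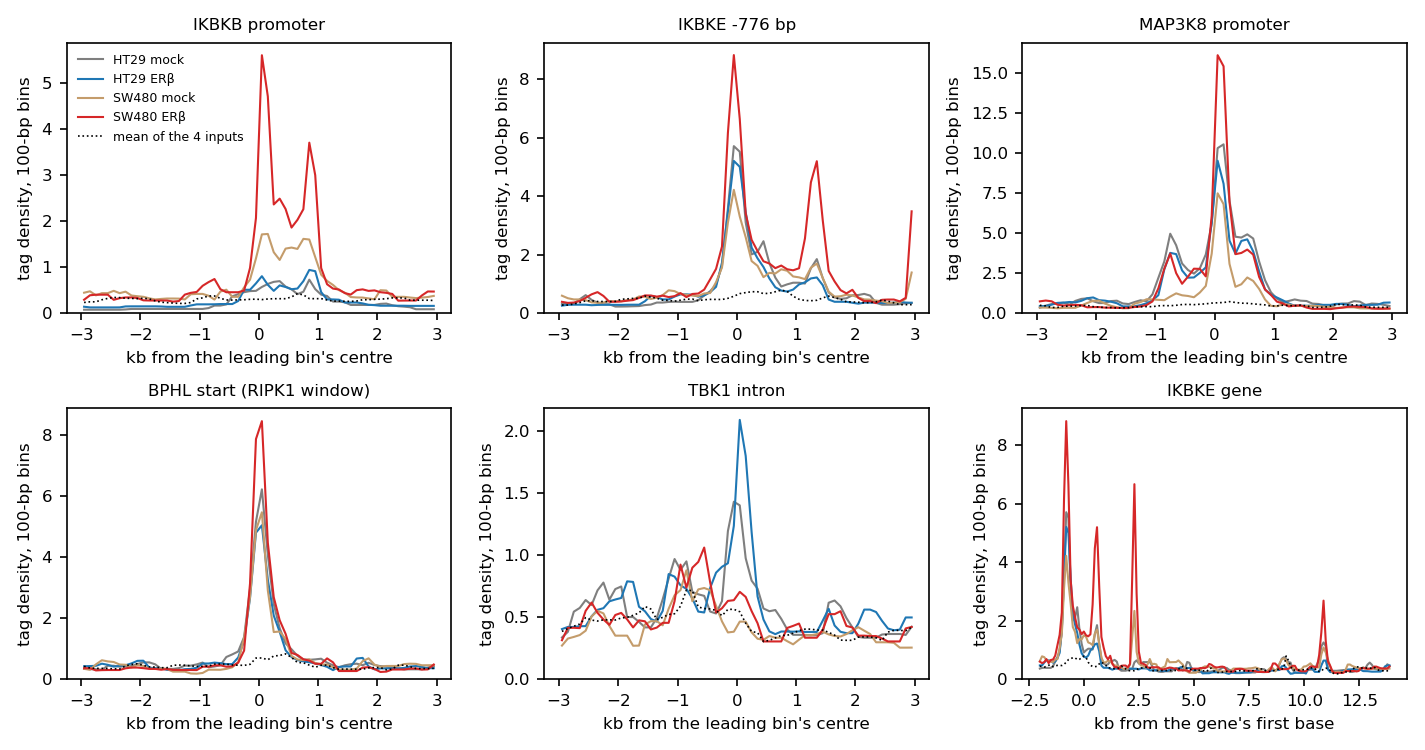
Mean tag density in 100-bp bins around the leading bin of 4 regions, around the highest bin of TBK1 and along IKBKE, with 1 line per group (mean of 3 libraries) and a dotted line for the mean of the 4 inputs; each panel has its own vertical scale. The IKBKB promoter and the IKBKE peaks downstream of its first base stand out in SW480-ERβ, the only group in which they were listed. The upstream IKBKE peak, MAP3K8 and the BPHL start rise in all 4 groups, and the TBK1 intron rises in the HT29 groups.

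ERβ and mock cells were then compared over the 8 leading bins within each line. In HT29 none passed the test, and differences ran from −0.51 to 0.12 with a median of −0.17. Across the genome 0.000611% of 1146539 tested bins were higher and 0.000698% lower in HT29-ERβ at an adjusted p under 0.05 (limma), so 0 of 8 is near the background. At an unadjusted p under 0.05 there was 1 bin, IKBKE +10824 bp. Without both HT29 libraries numbered 1, again 0 of 8 passed.

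In SW480, 1 of the 3 regions listed in every group passed the test (limma), the MAP3K8 promoter (0.84, adjusted p = 0.047). The differences of the other 2 were 0.84 at IKBKE −776 bp (adjusted p = 0.087) and 0.52 at the BPHL start (adjusted p = 0.53). With the replicate number as a block IKBKE −776 bp passed too (adjusted p = 0.015), in a fit that called 0.812% of all tested bins. The 5 regions listed in SW480-ERβ alone were chosen by the group in which they are high, and their differences of 0.68 to 1.10, of which all but that of IKBKE +10824 bp passed, are a description. Across all tested bins 0.603% were higher and 0.0184% lower in SW480-ERβ, and of the 10023 bins with a mean of at least 2 over the 12 libraries 17.3% were. The median difference over those strong bins was 0.38, so strong p65 bins were in general higher in SW480-ERβ. Those strong bins were chosen on all 12 libraries and are no match for regions listed through 1 group. The direction was kept in all 16 alternative fits of each region, but the calls depended on single libraries. Without SW480-mock 1 or without SW480-mock 2 only the IKBKG start site passed, and without SW480-ERβ 2 or SW480-ERβ 3 there were 2. Without SW480-ERβ 1, which held fewer listed bins than the other SW480-ERβ libraries, all 8 regions passed. With quantile normalization, which gives every library the same distribution of values, only the IKBKG start site passed. The calls over all tested bins moved too, from 0.621% in the main fit to 0.247% without SW480-mock 1 and 0.297% without SW480-mock 2. They came to 0.313% without SW480-ERβ 2, 0.363% without SW480-ERβ 3, 1.1% without SW480-ERβ 1 and 0.352% with quantile normalization.

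**Figure D4:**
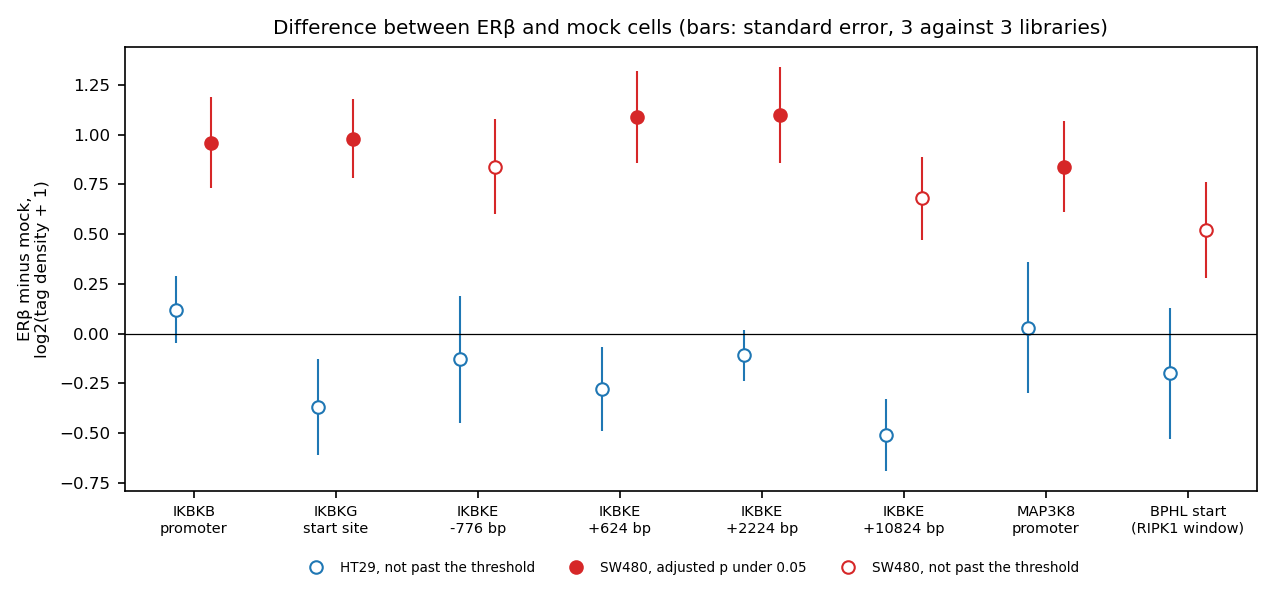
Difference between ERβ and mock cells at the 8 leading bins on the log2(tag density + 1) scale, with standard errors from limma on 3 against 3 libraries, HT29 in blue and SW480 in red, filled where the adjusted p is under 0.05. The HT29 values lie between −0.51 and 0.12 and the SW480 values between 0.52 and 1.10. At the 5 regions listed in SW480-ERβ alone, the listing favours a positive SW480 value.

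The difference between the ERβ effects of the lines was tested directly. It was 0.72 to 0.97 on the log2 scale at the 3 regions listed in every group and 0.83 to 1.37 at the 5 listed in SW480-ERβ alone, where the listing favours a positive value, and 0 of 8 passed (limma on 12 libraries, lowest adjusted p = 0.079, 6 at an unadjusted p under 0.05), where 0.0991% of all tested bins and 1.52% of the strong bins were called higher and 0.000523% of the tested bins lower. With the replicate number as a block, which called 0.391% of all tested bins, 0 of the 3 regions listed in every group passed and 4 of the 5 listed in SW480-ERβ alone: the IKBKG start site at 1.35 ± 0.28 (adjusted p = 0.0046) and IKBKE at +624 bp at 1.37 ± 0.28 (adjusted p = 0.0043), at +2224 bp at 1.21 ± 0.26 (adjusted p = 0.01) and at +10824 bp at 1.19 ± 0.25 (adjusted p = 0.0085).

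Between the lines, called differences went both ways among mock cells only. There 2 of the 8 bins were higher in SW480, IKBKB and IKBKE +2224 bp, and 1 was lower, the IKBKG start site. Of all tested bins 11.9% were higher and 12.9% lower, and of the strong bins 28.8% and 23.6%. The bins called among mock cells were all listed through SW480-ERβ alone, and no region listed in every group was called. Among ERβ cells 4 were higher in SW480 (IKBKB and IKBKE at +624, +2224 and +10824 bp), all of them listed through SW480-ERβ alone, and 0 lower, where 10.5% were higher and 11.1% lower, and of the strong bins 36.0% and 6.64%. With local input scaling the mock lines differed only at IKBKE +2224 bp, in a fit that called 1.04% of all tested bins. The ERβ lines differed at the IKBKG start site (1.09, limma adjusted p = 0.013) and at the same 3 IKBKE bins but not at IKBKB. That fit called 1.52% of all tested bins.

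Other genes of the route were grouped in 9 lists. Each list was read in the same way. A gene was counted where any bin of its window was listed, whereas averages, ranks and tests are of the highest bin of the window. Counts and averages are given for HT29-mock, HT29-ERβ, SW480-mock and SW480-ERβ in that order. All 9 NFκB subunit and inhibitor genes were listed in all groups, led by NFKBIA, NFKBIB and BCL3. Of the 9 TNF receptor complex genes, which include RIPK1, 4, 4, 5 and 8 were listed. TNF, the gene of the ligand, is counted among the 9 although its window was at 0 in every ChIP library and so was not read. BIRC3, a ubiquitin ligase of that complex, averaged 16.5, 14.7, 18.4 and 25.2, and the same bin is the highest in the window of its neighbour BIRC2. TRAF2, the adaptor that recruits these ligases, averaged 12.1, 11.1, 4.78 and 11.4.

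Of the 12 genes of linear ubiquitin and deubiquitinating enzymes, 7, 6, 3 and 8 were listed. CYLD, which removes ubiquitin chains, averaged 6.47, 5.06, 12.9 and 14.0, and RBCK1, a subunit of the linear ubiquitin ligase, averaged 7.59, 6.54, 1.31 and 3.58. The TAK1 complex list of 4, which holds MAP3K7 and TAB2, had 0, 0, 0 and 1. The 1 was TAB1, at 3.73 ± 1.399 (SD, n = 3) in SW480-ERβ, in a bin 46722 bp from its first base and nearest to MGAT3. TAB3 stayed below the limit, at 1.86 in SW480-ERβ.

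Of 13 other MAP3K genes, 4, 4, 4 and 8 were listed, led by MAP3K11, MAP3K2 and MAP3K5. The leading MAP3K11 bin lay nearest to RELA, the gene of p65, and that of MAP3K5 at 2 bp from a start site of PEX7. Of 10 adaptors of TBK1 and IKKε, 5, 5, 3 and 6 were listed, led by OPTN, TICAM1 and TANK. TANK, which binds both kinases, averaged 7.78, 7.11, 0.329 and 0.952 at its highest bin, which is the highest through HT29. Like the TBK1 bin, which stayed below the limit of 2, it was higher in HT29 than in SW480. In SW480-ERβ, TANK was listed through another bin.

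Of 11 interleukin-1 and Toll-like receptor adaptors, 2, 1, 1 and 2 were listed, led by IRAK2 and IRAK3. The IRAK3 bin lay at −88 bp from a start site of TMBIM4. TOLLIP had the next highest bin and was listed in no group. Of 10 IKK chaperones and binding proteins, 5, 4, 3 and 6 were listed. TNIP1, a partner of A20, led these with 15.7, 12.3, 15.6 and 19.9, followed by NKIRAS1 and TNIP2. The TNIP2 bin lay at 102 bp from a start site of SH3BP2. Of 9 genes of the non-canonical route, 5, 5, 3 and 5 were listed, led by NFKB2, RELB and TRAF3.

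The test of ERβ against mock at the highest bin of each gene gave 0 calls in HT29 in every list, where 0.0112% of 17870 genes were higher and 0.0112% lower. In SW480, 14.9% of those genes were higher and 0.0056% lower. In the lists, 2 of 8 tested TNF receptor complex genes were higher (TRAF2 and TNFRSF1B), 1 of 12 ubiquitin genes (RBCK1), 1 of 4 TAK1 complex genes (TAB1), 4 of 13 MAP3K genes, 1 of 10 adaptors of TBK1 and IKKε (TAX1BP1), 0 of 11 interleukin-1 and Toll-like receptor adaptors, 2 of 9 IKK-binding genes, 1 of 9 non-canonical genes (TRAF1) and 3 of 9 subunits and inhibitors (NFKB1, RELA and NFKBID). The MAP3K11 call and the RELA call are the same bin, counted in both lists. Of the 10 kinases and adaptors described here, 4 were higher at their highest bin, MAP3K8, IKBKB, IKBKG and MAP3K14, and 0 were lower. Those of IKBKB and IKBKG were listed, and that of MAP3K14 passed the filter, through SW480-ERβ alone, so the count is a description. The median difference was 0.68 over the 10 genes and 0.34 over all genes. The 0.68 includes the bins of IKBKB, IKBKG and MAP3K14, so it too is a description and not a contrast with all genes. At the same highest bins, SW480-mock was higher than HT29-mock at 1 of the 10 genes (IKBKB) and lower at 2 (IKBKG and TBK1), where 15.0% and 18.6% of all genes were. SW480-ERβ was higher than HT29-ERβ at 2 (IKBKB and MAP3K14, both among those bins and both lost with local input scaling, with adjusted p = 0.15 and 0.053) and lower at 1 (TBK1), where 35.9% and 4.9% were. The difference of the ERβ effects passed at 0 of the 10, where 2.5% of all genes were higher.

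**Figure D5:**
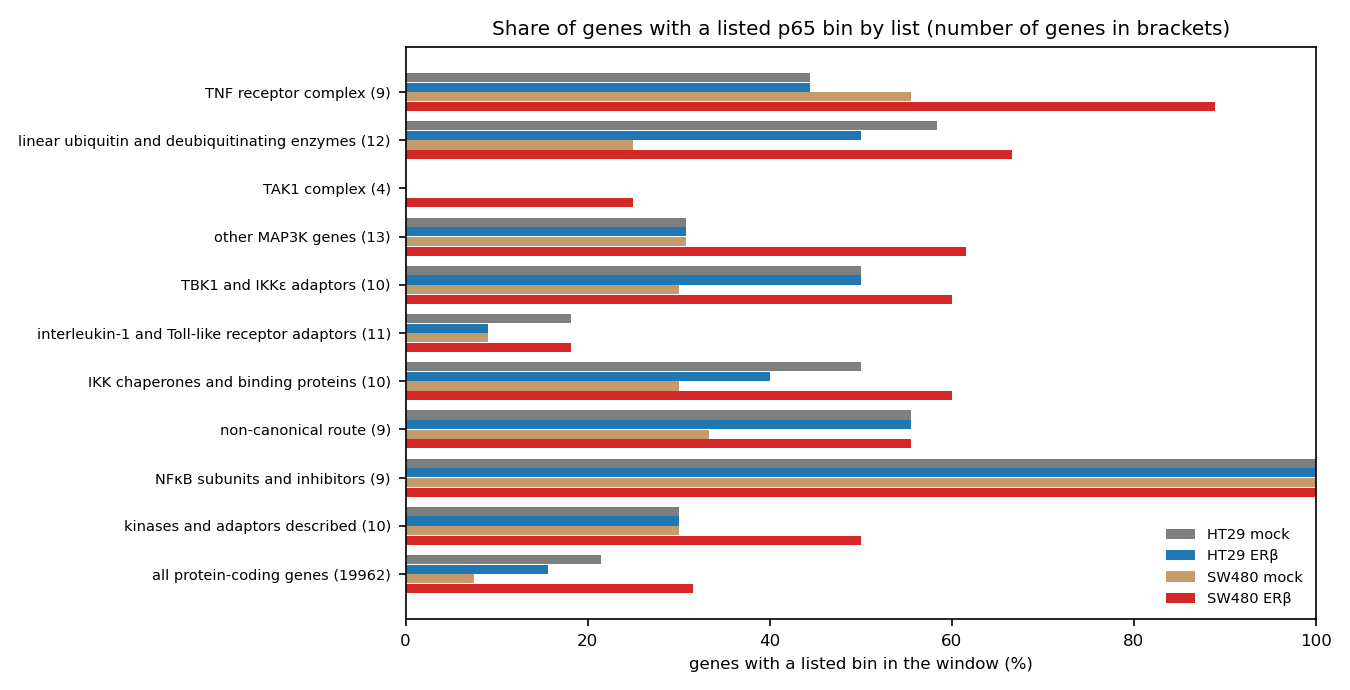
Share of genes with at least 1 listed p65 bin in each list, in percent, with 1 bar per group and the number of genes in brackets. The NFκB subunits and inhibitors stand at 100% in every group, and the TAK1 complex is at 0 in 3 groups.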

How the data were processed

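The authors sequenced p65 ChIP and input libraries and aligned reads to GRCh38 (hg38); the submitters' processing notes name STAR and HOMER, with versions not given in the sources used here. The 16 deposited tracks hold signal, the coverage in tags per bp of extended 100-bp fragments scaled by the authors to 10 M tags, with 0.05 as the lowest value kept. The tracks do not state the tags of each library, so counts were not tested and the fit was made on the signal; the study lists mapped reads per library, which were not used here.

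Mean signal was computed in 200-bp bins (Python 3.11.15, numpy 2.4.6, pysam 0.24.0), with gene positions from GENCODE release 44. The part of the IKBKG window before its start site is not reported here, and its listing and highest bin were taken from the rest. Differences were tested with limma 3.58.1 (R 4.3.3), with a trend, on log2(signal + 1) of all bins with a mean of at least 0.5 over the 12 ChIP libraries (1146539 bins), with Benjamini-Hochberg adjustment over all of them and a threshold of 0.05. Each pair of groups was fitted on its 6 libraries and the difference of the ERβ effects on all 12. On this scale the change of low bins is understated. The scripts were tested on simulated data.

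The labels number the libraries of each group, and the study's methods call them biological replicates. The p-values measure the spread between them, with the variance of each bin drawn by limma toward the trend over all tested bins. A p-value therefore does not rest on the spread of the libraries at its own bin alone. Deviations from the group means of same-numbered mock and ERβ libraries correlated at 0.58, 0.235 and 0.261 in HT29 and 0.316, 0.143 and 0.226 in SW480, all above 0.1, so the numbers were taken to pair them within a line and fits with the number as a block are given where a call changes. In HT29, mock 2 with ERβ 3 correlated at 0.277 and mock 3 with ERβ 2 at 0.195, so numbers 2 and 3 do not single out their pairs there. Local input scaling divides each library by the smoothed input of its line around the bin. All libraries of a line share the same factor, so a difference within a line changes only through the added 1 and the refit. This scaling and the fits without both HT29 libraries numbered 1 were chosen after seeing the data. All 10 genes are named, each with the strongest bin of its window in every library; other regions are named where a comparison called them. In the other lists up to 3 genes with the highest bins are named, and further genes that passed a test were named after their values were seen. The genes and lists were chosen with earlier results of these data known. All inputs are labelled with the p65 antibody like the ChIP libraries and were used as inputs by their titles.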

Additional observations from a re-analysis of the deposited data

Results flagged for a closer look

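The ERβ effect differed between SW480 and HT29 at 4 of the 8 leading bins when the replicate number was kept as a block (limma, interaction term), a fit that called 0.391% of all tested bins. All 4 bins were listed in SW480-ERβ alone, so they were chosen through the group in which they are high, and none of the 3 regions listed in every group passed. On the log2(signal + 1) scale the SW480 effect exceeded the HT29 effect by 1.35 at the IKBKG start site, by 1.37 at IKBKE +624 bp, by 1.21 at IKBKE +2224 bp and by 1.19 at IKBKE +10824 bp. Without the block none of these passed (adjusted p = 0.11, 0.12, 0.12 and 0.079). At each of the 4 bins the effect was negative in HT29 and positive in SW480, and in HT29 it was not called. The SW480-ERβ libraries also held more bins at the limits than the SW480-mock libraries, 5969 to 13521 against 1272 to 2201, and the part of this in the 4 differences was not tested.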

How the results depend on the processing

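The number of the 10 genes listed changed by more than 1.5 times at 8 times input, to 0 in SW480-mock, and with windows of 50 kb upstream to 2 kb downstream of the first base of each gene, to 3 in SW480-ERβ, where RIPK1 was lost and IKBKG had no readable bin left by construction. For SW480-ERβ against SW480-mock, the 5 regions called of 8 became 1 to 8 when 1 library was left out and 1 with quantile normalization. They became 3 with local input scaling, 1 with a filter on a mean of 0.25 and 0 with the matching input subtracted. Over all tested bins the share called was 0.621% in the main fit and 0.247% to 1.1% when 1 library was left out. It was 0.352% with quantile normalization, 0.494% with local input scaling, 0.0139% with the filter of 0.25 and 0 with the input subtracted. Between the mock lines 3 became 1 with local input scaling and 0 with the input subtracted. Between the ERβ lines 4 became 4 to 7 when 1 library was left out (7 without HT29-ERβ 1) and 0 with the input subtracted. With the input subtracted 0 of the 1146539 tested bins were called in either comparison of the lines. The fits of the ERβ lines with 1 library left out called 16.5% to 18.4% of all tested bins, against 21.6% in the main fit. For the difference of ERβ effects, 0 became 4 with the replicate block, 0 to 3 when 1 library was left out (3 without HT29-ERβ 1 or SW480-ERβ 1), 2 without both HT29 libraries numbered 1, 1 with local input scaling, 3 with a filter on a mean of 1, and 1 of 6 regions with bins shifted by 100 bp. Over all tested bins the main fit of this difference called 0.0996%, the block 0.391% and the fits with 1 library left out 0.0351% to 0.257%. The fit with a filter on a mean of 1 called 2.8% of its bins. The cause of these changes was not tested. The replicate block also called IKBKE −776 bp in SW480 and beside these changed no call of a region.

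Signs changed only in differences that were not called. Leaving out 1 library gave HT29 differences of −0.31 to 0.10 at IKBKE −776 bp, −0.59 to 0.10 at the BPHL start, −0.24 to 0.47 at MAP3K8 and −0.15 to 0.34 at IKBKB, and differences of the mock lines of −0.58 to 0.12 at MAP3K8, −0.37 to 0.26 at the BPHL start and −0.26 to 0.08 at IKBKE +624 bp. IKBKB in HT29 came to −0.26 without both HT29 libraries numbered 1. With quantile normalization IKBKE −776 bp came to 0.03 in HT29 and −0.02 between the ERβ lines, and the BPHL start to 0.03 between the mock lines. With local input scaling the BPHL start came to 0.04 between the mock lines. Over single regions, bins and settings, 656 values kept their direction and side of the threshold, 27 newly passed, 57 no longer passed, and 18 changed sign.

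Over all bins, the block moved the calls for the difference of ERβ effects from 1142 to 4488 and those in HT29 from 15 to 58, and local input scaling moved those between the mock lines from 284319 to 11950. Depth was not held by the tracks, so a missing listed bin says only that the limits were not reached.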
